A study of Rattus norvegicus with 8 samples.

Results

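The genes *Cdh19*, *Pmp22*, *Pmp2*, *Prx*, *Gldn*, *Erbb3*, *Sox10* and *Plp2*, were followed in lumbar spinal cord as genes of Schwann cells and peripheral nerve. They were taken by name from the gene name column of the arrays, 8 of 26514 names in all, and were read by 9 probes. *Cdh19* was chosen by its own readout in these samples, namely detection on the arrays of stressed rats and not of control rats, so its group values are given as a description with no test. The other 7 genes were named as its companions. The samples were L6S1 segments of male Wistar rats aged 12 weeks, 1 one-colour array per rat. The stressed group held 4 rats exposed to water avoidance (WA) stress on 10 days and collected 24 h after the last session. The control group held 4 rats of the same strain, sex and age, which the study describes as handled for 10 days. No transgene was involved, and all rats were under isoflurane when killed. The cord was flushed out of the column with cold saline and the meninges were taken off, and the description of the dissection does not mention nerve roots.

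Schwann cells are the glia of peripheral nerves and of the roots that enter and leave the cord, whereas oligodendrocytes make the myelin inside the cord. The lineage depends on the transcription factor Sox10 and on neuregulin signals received by ErbB3 with its partner ErbB2. Myelinating Schwann cells then make proteins that central myelin lacks or holds at a low level, and anchor their outer surface to a basal lamina through periaxin. A piece of root left on a cord segment adds these transcripts to the cord RNA. In such whole-tissue RNA, fewer cells of a type and less RNA per cell cannot be told apart.

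Among the peripheral myelin transcripts, *Pmp2* and *Prx* differed between rats far more than between the groups. *Pmp2*, by its brighter probe, and *Prx* spanned 23.2-fold and 27.3-fold over the 8 rats. Both were highest in control rat 1, and the groups overlapped for each of them. *Pmp22* and *Gldn*, also highest in control rat 1, spanned 3.24-fold and 3.16-fold. Over the 4 stressed rats alone they spanned 1.37-fold and 1.47-fold. *Sox10*, *Erbb3* and *Plp2* spanned 1.32-fold, 1.5-fold and 1.68-fold. The *Cdh19* probe was faint in all rats. Both the size of its group difference and the sign of its correlation with the peripheral myelin genes changed with background correction and its offset.

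What each probe reads is part of these values. All 8 transcript identifiers given by the arrays carried the same gene symbol in the RefSeq table used here (8 of 8 genes), and each probe is a 60-base oligonucleotide placed on a RefSeq mRNA, hence in exonic sequence. *Pmp2* had 2 probes, beginning at bases 230 and 1215 of its mRNA and called here the 5′ and 3′ probe, and every other gene had 1. Printed here are 3 probes, that of *Cdh19*, the gene in question, and those of *Prx* and of the 5′ end of *Pmp2*, the members with the largest range. In the *Cdh19* probe a reading frame runs on to a stop codon that starts at base 55, shown in capitals. The *Pmp2* 5′ probe and the *Prx* probe have at least 1 frame without a stop codon.
Cdh19, rn4 chr13:18148715-18148774, minus strand: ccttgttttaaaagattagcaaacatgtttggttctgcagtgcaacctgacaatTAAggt
Pmp2, rn4 chr2:93567612-93567671, plus strand: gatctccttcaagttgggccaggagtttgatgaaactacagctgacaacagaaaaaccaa
Prx, rn4 chr1:82597427-82597486, plus strand: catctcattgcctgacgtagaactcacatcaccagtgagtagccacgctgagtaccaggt
The remaining probes lay, in rn4, at chr10:49335537-49335596 for *Pmp22*, chr7:117138840-117138899 for *Sox10*, chr7:1858095-1858154 for *Erbb3*, chr2:93570068-93570127 for the *Pmp2* 3′ probe, chrX:26878451-26878509 for *Plp2* and chr8:57839130-57839189 for *Gldn*.

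Signals are given on the log2 scale after each array's 75th percentile was subtracted, so 0 is a signal equal to that percentile and a difference of 1 is a doubling. Levels of different members are not compared with one another. Detection means that the scanner software called 0.5 or more of a probe's spots well above background. Of 30367 probes, 23677 were detected on at least 4 of the 8 arrays and tested, and 22998 to 24064 were detected on an array. All 8 arrays shared 1 slide, with the stressed rats in its first row and the control rats in its second, so row and group cannot be told apart. Control rat 2 stood apart from the other control rats: its 5′ probes exceeded its 3′ probes of the same transcripts by a median of 0.22 relative to the mean array, against -0.30 to -0.18 in the other 3 control rats and 0.09 to 0.17 in the stressed rats. Counts without it are given where they moved.

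*Pmp2* encodes myelin P2, a fatty acid binding protein of the peripheral myelin sheath. Its 3′ probe read 1.73, -1.38, -0.87 and -2.47 in control rats 1 to 4. It read -2.81, -1.87, -0.37 and -2.66 in stressed rats 1 to 4. Control rat 1 stood above every other rat, stressed rat 3 came next, and the groups overlapped. The 5′ probe gave the same order at the top, with -1.29 in control rat 1 and -2.97 in stressed rat 3 against -5.22 in the lowest stressed rat. Both probes followed each other over the 8 arrays with a Pearson r of 0.986 (exact permutation p = 0.000198) and a Spearman rho of 0.952 (exact permutation p = 0.00114), and r was 0.958 without the 2 arrays farthest from the median.

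*Prx* encodes periaxin, the scaffold that links the Schwann cell membrane to dystroglycan and the basal lamina. Its signals were -2.55, -3.72, -4.62 and -7.32 in control rats 1 to 4. In stressed rats 1 to 4 they were -6.34, -5.78, -3.95 and -6.23. The highest and the lowest value of the series were both in control rats. *Prx* was still detected on all 8 arrays, the control rat with the lowest signal included.

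*Pmp22* encodes a tetraspan protein of compact peripheral myelin and is also made by other cells. It read 4.28, 2.67, 3.17 and 2.74 in control rats 1 to 4 and 2.69, 2.58, 3.03 and 2.74 in stressed rats 1 to 4. Control rat 1 was again the highest, and the other 7 rats lay between 2.58 and 3.17. *Gldn* encodes gliomedin, which Schwann cell microvilli present at the node of Ranvier to gather sodium channels. It read -1.73, -2.88, -2.66 and -3.27 in control rats 1 to 4 and -3.39, -3.34, -2.84 and -3.30 in stressed rats 1 to 4. Its order at the top was control rat 1, control rat 3 and stressed rat 3.

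*Sox10*, which oligodendrocytes use as well, read 1.87, 2.05, 1.88 and 1.92 in control rats and 1.68, 1.83, 1.95 and 1.65 in stressed rats. Its whole range over the 8 rats was 0.40. *Erbb3*, the receptor for neuregulins on Schwann cells and their precursors, read -4.52, -3.93, -4.23 and -4.21 in control rats and -4.42, -4.11, -4.11 and -4.40 in stressed rats. Control rat 1, the highest for the peripheral myelin genes, was the lowest for *Erbb3* with this signal. With the normexp background correction used below it was instead the highest for *Erbb3*, at -3.13 against -3.63 to -3.26 in the other rats. *Plp2*, a membrane protein found in many tissues, read -1.81, -1.59, -2.0 and -2.14 in control rats and -1.86, -1.95, -1.39 and -2.09 in stressed rats. For these 3 genes the groups overlapped and no rat stood far from the others.

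**Figure D1:**
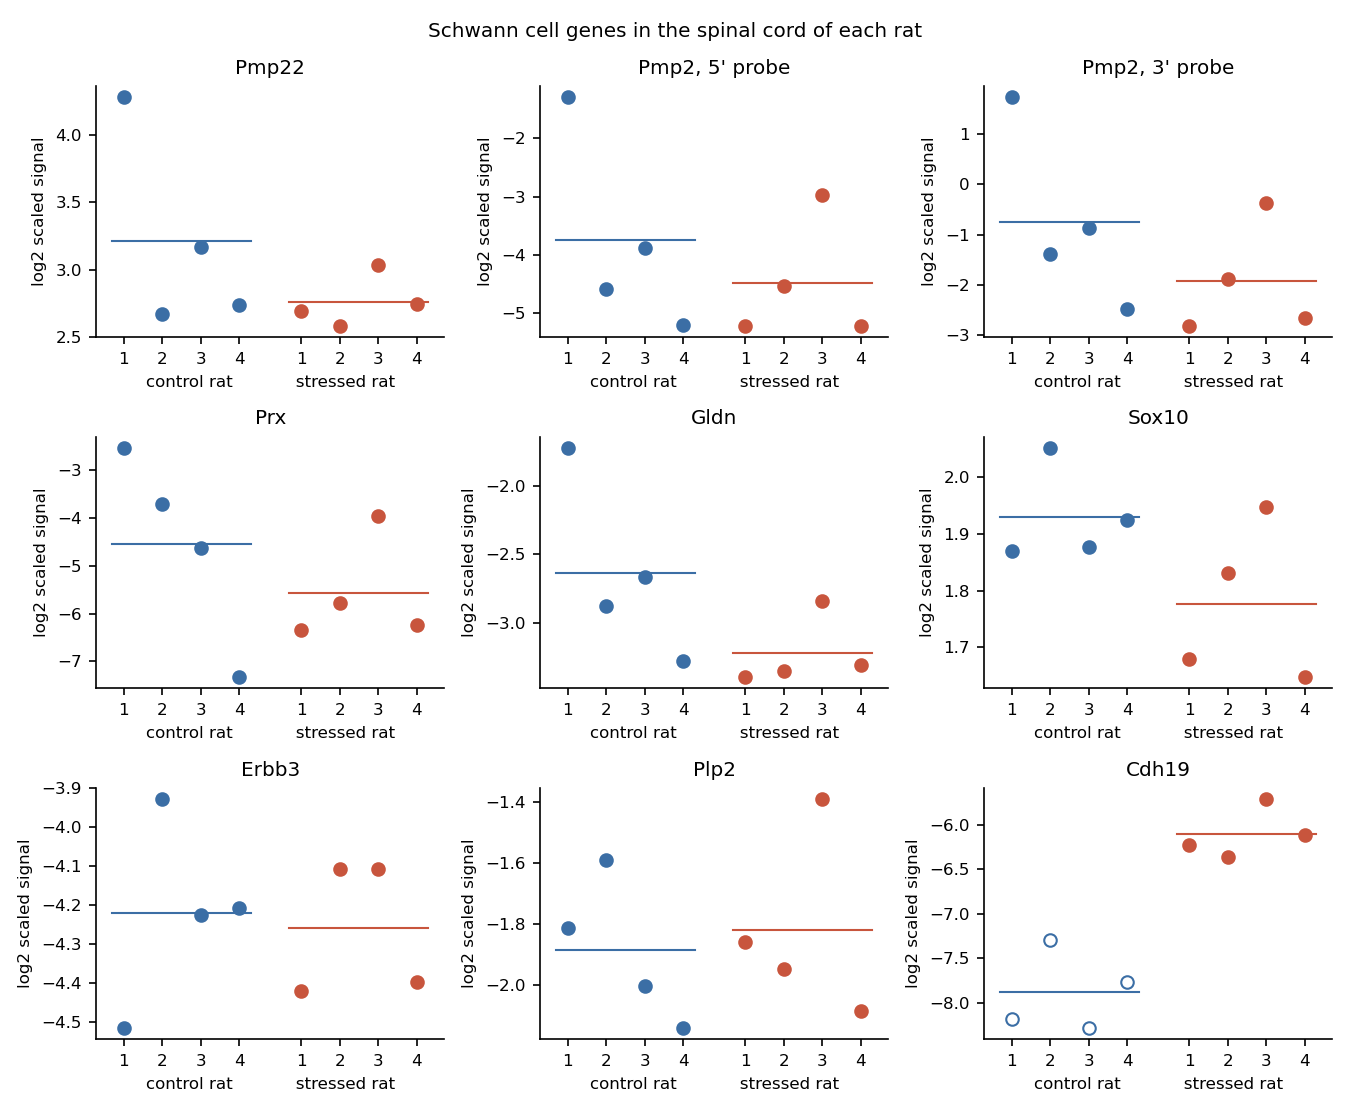
Log2 scaled signal of the 9 member probes in each rat, control rats in blue and stressed rats in red, with a line at each group mean (n = 4). Open circles are arrays where the probe was not well above background, and each panel has its own vertical axis. Control rat 1 is the highest point for Pmp22, both Pmp2 probes, Prx and Gldn, and all 4 open circles are Cdh19 in control rats.

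Spread within the groups set the members apart from one another. The within-group standard deviation was 1.64 for *Prx*, 1.49 and 1.43 for the 3′ and 5′ probes of *Pmp2*, 0.54 for *Pmp22* and 0.50 for *Gldn*, against a median of 0.20 over all tested probes. *Prx* lay above 99.8% of tested probes in this measure, *Pmp22* above 90.6% and *Gldn* above 88.2%. These values pool both groups, and the control rats spread more. The SD in control and stressed rats was 0.74 and 0.19 for *Pmp22* and 0.65 and 0.26 for *Gldn*. For *Prx* it was 2.03 and 1.11, and for the *Pmp2* 3′ probe 1.78 and 1.12. *Sox10*, at 0.12, lay above 23.8%, *Erbb3*, at 0.21, above 52.7% and *Plp2*, at 0.27, above 64.8%.

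*Cdh19* encodes cadherin-19, a type II cadherin used as a marker of Schwann cell precursors and nerve-associated glia. Its probe read -6.22, -6.36, -5.72 and -6.12 in stressed rats 1 to 4 and -8.18, -7.30, -8.28 and -7.76 in control rats 1 to 4. The groups did not overlap, which is tied to the detection pattern it was chosen by, and 12.1% of all tested probes had groups that did not overlap. It entered the tested set only through the 4 stressed arrays. The signal was faint throughout, with 2.11% of tested probes dimmer on average.

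The 2 *Cdh19* spots of each array show what lay behind these values. The spot mean signals averaged 64.3 ± 5.82 scanner units in the stressed rats and 47.2 ± 1.42 in the control rats (SD, n = 4). The median of the negative control spots, which carry no rat sequence, was 36.9 ± 1.85 and 32.6 ± 1.67. All 8 spots on the stressed arrays were well above background, and 0 of the 8 on the control arrays were. Even so, 6 of the 8 control spots were brighter than every one of the 292 to 308 unflagged negative control spots on their array, as were all 8 stressed spots. The control arrays therefore give *Cdh19* as not well above background, with a signal above most blank spots.

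The size of the *Cdh19* difference depended on how background was removed and on the constant added afterwards. With the scanner software's processed signal the group means of the log2 values differed by 1.78, that is 3.43-fold, and the group means of the signal itself differed 2.64-fold. Putting the dimmest probe well above background in place of *Cdh19* wherever it was the higher changed nothing, since *Cdh19* was the higher on all 4 control arrays, so 3.43 sets no lower limit for other corrections. The spot mean signal less the negative control median gave 27.3 ± 5.25 and 14.6 ± 0.49 scanner units, a ratio of 1.87. The normexp correction, run with an offset of 50 scanner units added to each signal, gave a log2 difference of 0.33, that is 1.26-fold. That offset is larger than the processed *Cdh19* signal of any array, at most 36.8, and by itself makes a ratio smaller. The parts of the correction and of the offset in this fall were not told apart.

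**Figure D2:**
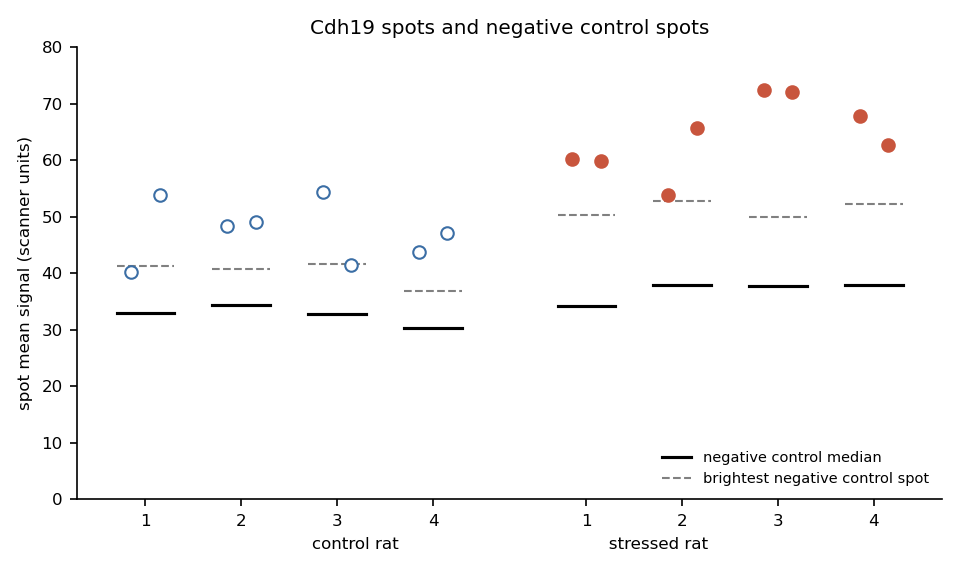
Mean signal in scanner units of the 2 Cdh19 spots on each array (circles; filled where well above background), with the median (solid line) and the brightest (dashed line) of the negative control spots of that array. The 8 stressed spots and 6 of the 8 control spots lie above the dashed line.

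*Pmp2*, *Pmp22*, *Prx* and *Gldn* varied together across rats. Among the 21 pairs of the 7 genes other than *Cdh19*, each gene read by its brighter probe, 5 pairs passed an exact two-sided permutation test of Pearson's r at an adjusted p below 0.05, all with positive r. *Pmp2* and *Gldn* had r = 0.963 (exact permutation p = 0.00156, adjusted 0.0198), *Pmp22* and *Gldn* r = 0.952 (p = 0.0037, adjusted 0.0202) and *Pmp22* and *Pmp2* r = 0.907 (p = 0.00704, adjusted 0.0296) over the 8 arrays. *Prx* and *Pmp2* had r = 0.896 (exact permutation p = 0.00188, adjusted 0.0198) and *Prx* and *Gldn* r = 0.862 (p = 0.00384, adjusted 0.0202). The rank correlations of these 5 pairs ran from 0.595 to 0.905 and 0 of the 21 pairs passed after adjustment, the smallest adjusted exact permutation p being 0.0958.

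The r of the pairs with *Pmp22* fell when control rat 1 was left out. Without the 2 arrays farthest from the median of the first gene named, r was 0.908 for *Pmp2* with *Gldn*, 0.876 for *Prx* with *Pmp2* and 0.868 for *Prx* with *Gldn*, but 0.609 for *Pmp22* with *Gldn* and 0.633 for *Pmp22* with *Pmp2*. Without control rat 1 these r were 0.885, 0.852, 0.821, 0.793 and 0.697 over 7 arrays. At that number 0 of 21 pairs passed, and 6 had an unadjusted exact permutation p below 0.05. The counts were the same without stressed rat 3, where r of the 5 pairs ran from 0.881 to 0.981. Within groups, after each group was centred on its mean, r stayed at 0.969 for *Pmp2* with *Gldn* and 0.883 for *Prx* with *Pmp2*, with 0 of 21 passing and 8 pairs below an unadjusted exact permutation p of 0.05.

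*Sox10*, *Erbb3* and *Plp2* did not pass with any of the 4 peripheral myelin genes. *Sox10* with *Erbb3* had r = 0.724 (exact permutation p = 0.0442, adjusted 0.133) and *Prx* with *Plp2* had r = 0.664 (p = 0.0721, adjusted 0.189). *Pmp22* with *Erbb3* had r = -0.545 (exact permutation p = 0.164, adjusted 0.383), which became 0.536 with the normexp correction and 0.0758 with quantile normalization. For *Cdh19*, described without a test, r over the 8 arrays was -0.597 with *Gldn*, -0.537 with *Pmp22*, -0.444 with *Pmp2* and -0.288 with *Prx*. With the normexp correction all 4 turned positive, at 0.549, 0.509, 0.462 and 0.632, and so they were with the processed signal without the 2 arrays farthest from the *Cdh19* median, at 0.0213, 0.421, 0.261 and 0.269. No direction is therefore read from them. After group centring, which removes the difference *Cdh19* was chosen by, r was 0.681 with *Sox10*, 0.648 with *Erbb3* and 0.616 with *Plp2*. With the 4 peripheral myelin genes it was then between -0.424 and 0.0998. Without the 2 arrays farthest from the centred *Cdh19* median, the first 3 became -0.135, 0.0321 and -0.666. The other 4 then lay between -0.777 and -0.511, so no link is read from the centred values either. These points share arrays and, for *Cdh19* in control rats, a signal not well above background.

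**Figure D3:**
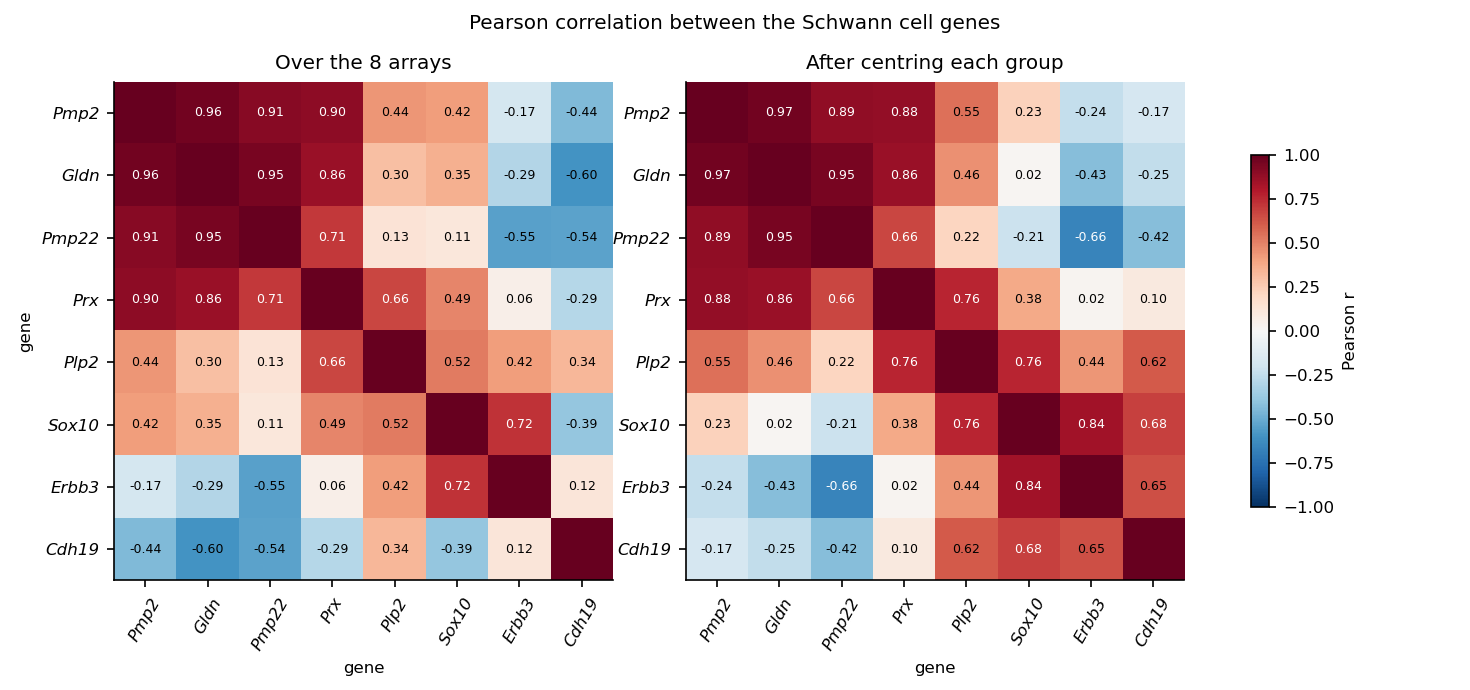
Pearson r between the 8 genes over the 8 arrays (left) and after each group of 4 rats was centred on its mean (right), from -1 in blue to 1 in red, each gene read by its brighter probe. The block of Pmp2, Gldn, Pmp22 and Prx has r from 0.71 to 0.96 on the left, and Cdh19 is negative with all 4 there but positive with all 4, at 0.46 to 0.63, after the normexp correction (not drawn).

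**Figure D4:**
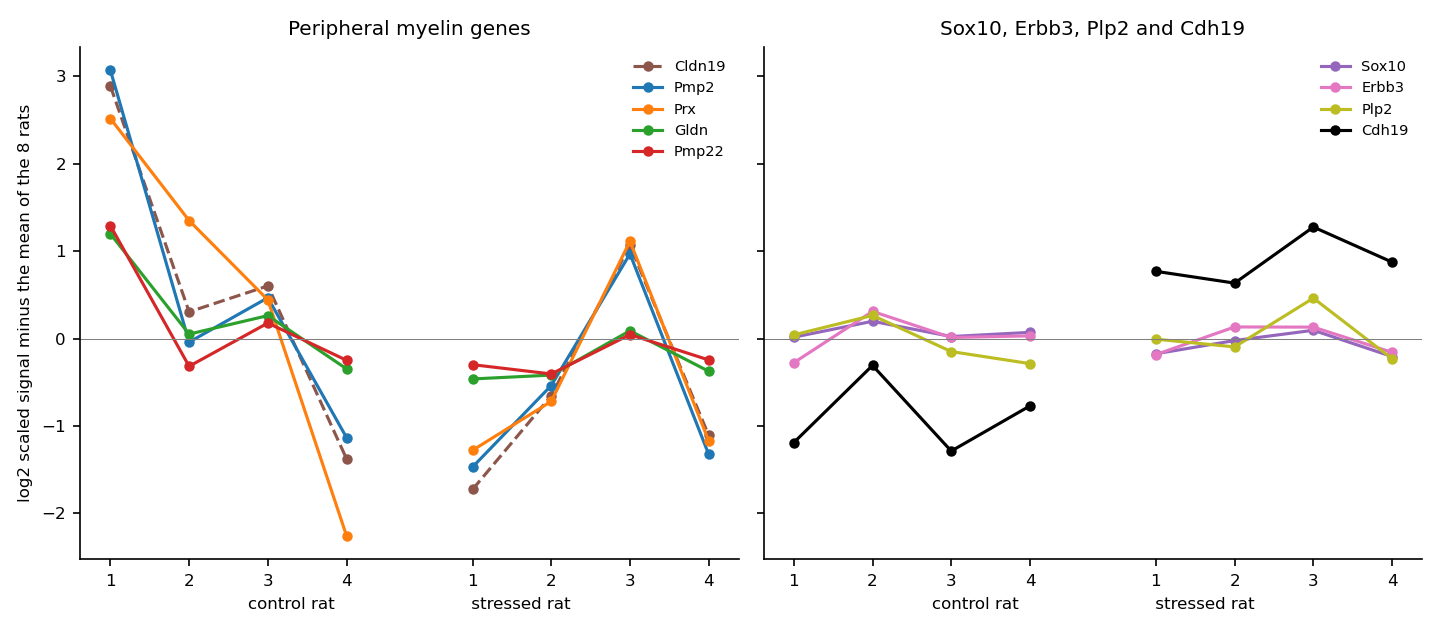
Log2 scaled signal minus the mean of the 8 rats for each gene's brightest probe, peripheral myelin genes on the left (Cldn19, dashed, is not a member) and the other members on the right, on a common axis. Lines join rats of a group only to guide the eye. On the left control rat 1 is on top for every gene, whereas Sox10, Erbb3 and Plp2 stay within 1 log2 unit on the right.

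Other genes of peripheral myelin and the Schwann lineage were split in the same way. Of 17 genes listed, 14 had a probe of that name and all 14 were tested. *Cldn19*, a claudin of Schwann cell junctions, ran from -4.99 in stressed rat 1 to -0.38 in control rat 1. *Egr2*, the transcription factor that drives peripheral myelination, ran from -9.18 in control rat 4 to -5.01 in control rat 1 and was detected on 4 arrays. *Itgb4*, a laminin receptor subunit of Schwann cells, ran from -2.03 in control rat 4 to -0.06 in control rat 1. The dimmer of the 2 probes of *Dhh*, a hedgehog ligand of Schwann cells, ran from -7.76 in stressed rat 1 to -3.53 in control rat 1, while the brighter one was lowest in control rat 3 and spanned 3.4-fold. Control rat 1 was the highest array for 6 of the 14 genes. *Scn7a*, a sodium channel of non-myelinating Schwann cells, and the adhesion gene *L1cam* spanned 3.3-fold and 2.92-fold. The dimmer probe of *Scn7a* spanned 1.61-fold. *Drp2*, *Ngfr*, *Gfra3*, *Pou3f1* and *Fxyd3* spanned 1.36-fold to 1.94-fold. *S100b* and *Sox2*, which astrocytes and other glia also express, spanned 1.27-fold and 1.34-fold.

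Between the groups, 0 of the 8 member probes other than that of *Cdh19* passed a false discovery rate below 0.1 by limma with Benjamini-Hochberg adjustment over all tested probes, where 3.74% of all tested probes passed. Of these 8, 0 had an unadjusted p below 0.05, against 20.3% of all tested probes, and in all 8 the groups overlapped. The probe of *Cdh19* was in the same fit, and its call is not read, since it was chosen by that contrast. The largest differences, stressed minus control, were -1.18 for the *Pmp2* 3′ probe (SE 0.92, 95% confidence interval -3.30 to 0.94, adjusted p = 0.478) and -1.03 for *Prx* (SE 1.01, interval -3.36 to 1.31, adjusted p = 0.576). *Gldn* differed by -0.58 (SE 0.31, adjusted p = 0.323), *Pmp22* by -0.45 (SE 0.34, adjusted p = 0.466) and *Sox10* by -0.15 (SE 0.09, adjusted p = 0.361). *Erbb3* differed by -0.04 (interval -0.36 to 0.29, adjusted p = 0.889) and *Plp2* by 0.06 (interval -0.34 to 0.47, adjusted p = 0.85). The median over all tested probes was 0.06.

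The size of the negative values of the peripheral myelin genes depended on single control rats. Without control rat 1 the *Pmp2* 3′ probe differed by -0.35 and the 5′ probe by 0.07, *Pmp22* by -0.10, *Prx* by -0.36 and *Gldn* by -0.28. Without control rat 4, the rat with the lowest *Prx* signal, the *Pmp2* 3′ probe differed by -1.76, *Prx* by -1.95 and *Gldn* by -0.79, and the last 2 had an unadjusted p of 0.0288 and 0.0294 by limma with adjusted p-values of 0.314 and 0.318. Without control rat 2, where 42.4% of tested probes passed, the 8 probes other than that of *Cdh19* gave adjusted p-values that still all missed the threshold. With these intervals, a group difference of 1 log2 unit in *Pmp2* or *Prx* was not detectable with 4 rats a group.

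**Figure D5:**
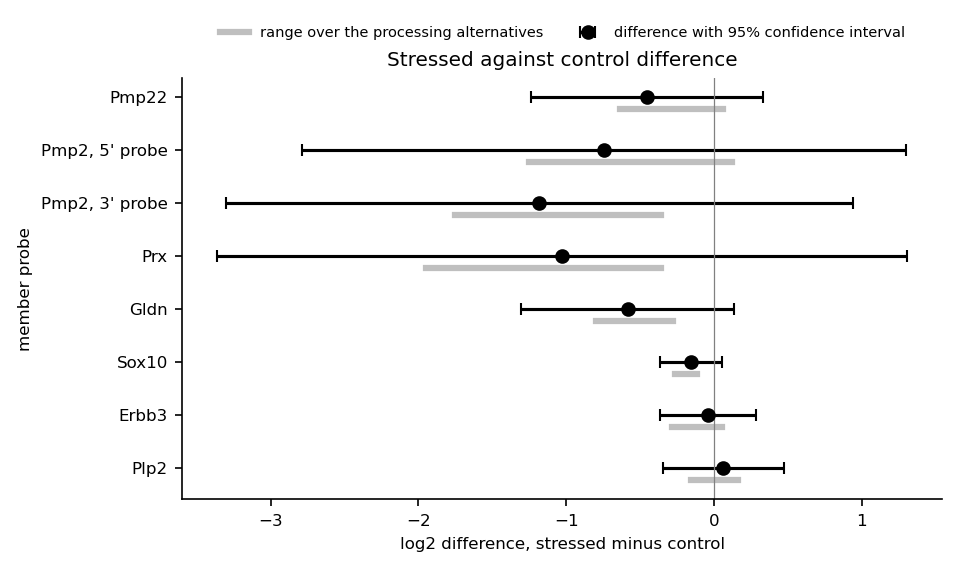
Stressed minus control log2 difference of the 8 member probes other than that of Cdh19, with its 95% confidence interval from limma (black, n = 4 per group) and the range over the main setting and 19 processing alternatives (grey bars). All 8 intervals include 0, and those of Pmp2 and Prx are the widest.

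Lists of genes around the members were read in the same fit, each gene by its brightest probe. Of the 14 peripheral myelin and Schwann lineage genes 0 passed and 1, *Ngfr* (difference -0.41), had an unadjusted p below 0.05 by limma, and their median difference was 0.06. An unadjusted p below 0.05 was found in 20.3% of all tested probes. *Cldn19* differed by -1.21 (SE 0.93, adjusted p = 0.473) and *Scn7a* by -0.68 (SE 0.32, adjusted p = 0.269). Without control rat 2, 4 of the 14 were higher in stressed rats (*Dhh*, *L1cam*, *Pou3f1* and *Sox2*) and 2 lower (*Ngfr* and *Scn7a*), a share close to the 42.4% of all tested probes in that fit, and the genes *Cldn19*, *Egr2* and *Itgb4* were in neither set. The probes of *Dhh* and *Scn7a* did not give the same result. With all 8 rats *Dhh* differed by 0.46 by its brighter probe and by -1.14 by its dimmer one. *Scn7a* differed by -0.68 by its brighter probe and by -0.01 by its dimmer one.

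For the partners of ErbB3, 0 of 11 neuregulin and ErbB signalling genes passed and 2 had an unadjusted p below 0.05 by limma, *Adam17* and *Nrg1*. Over all tested probes 3.74% passed and 20.3% had an unadjusted p below 0.05, so these counts are near the general share. *Nrg1*, the neuregulin that controls Schwann cell number and myelin thickness, read -2.59, -1.68, -2.48 and -2.43 in control rats and -1.86, -1.59, -2.04 and -1.65 in stressed rats, with control rat 2 among the stressed rats. *Erbb2*, the co-receptor, read highest in control rat 1 at -3.79 and differed by -0.19 by its brightest probe. Another *Erbb2* probe, detected on all 8 arrays, differed by -0.52 (SE 0.13, adjusted p = 0.106 by limma) and missed the threshold. Its groups did not overlap, as in 12.1% of all tested probes. The median of the list was 0.32, against 0.06 over all tested probes. Without control rat 2, where 42.4% of all tested probes passed, 7 of 11 were higher in stressed rats, *Nrg1*, *Nrg2*, *Nrg3*, *Erbb4*, *Egfr*, *Bace1* and *Adam17*, and *Erbb2* was not.

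For the partners of cadherin-19, 3 of 16 type II cadherins, classical relatives and catenins passed, all higher in stressed rats, as were 2.77% of all tested probes. *Ctnnb1*, encoding beta-catenin, differed by 2.61 (SE 0.59, adjusted p = 0.0865), *Ctnna1*, encoding alpha-catenin, by 0.60 (SE 0.12, adjusted p = 0.0703) and *Cdh24* by 0.57 (SE 0.14, adjusted p = 0.0972). In this list 4 of 16 had an unadjusted p below 0.05 by limma, against 20.3% of all tested probes. *Ctnnb1* read -4.70, -1.65, -4.16 and -3.95 in control rats and -1.10, -0.90, -0.91 and -1.10 in stressed rats. Control rat 2 was the nearest to the stressed rats, as in *Cdh19*. Without control rat 1, 0 of 16 passed and 3 had an unadjusted p below 0.05 by limma. In that fit 0.156% of all tested probes passed and 14.4% had an unadjusted p below 0.05. *Cdh1*, encoding E-cadherin of the non-compact Schwann cell myelin, followed the peripheral myelin genes instead, from -9.53 in control rat 4 to -2.78 in control rat 1, and was detected on 4 arrays.

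For the partners of periaxin, 0 of 10 tested genes of the dystroglycan complex and basal lamina passed, with 1, *Utrn*, at an unadjusted p below 0.05 by limma and a median of -0.06. For the node partners of gliomedin, 0 of 11 passed, with 1, *Ank3*, below 0.05 unadjusted and a median of 0.11. Of 7 SoxE and partner factors 1 passed, *Sox4*, at 0.33 (SE 0.07, adjusted p = 0.0772), where 3.74% of all tested probes passed. In that list 4 had an unadjusted p below 0.05 by limma, against 20.3% of all tested probes. All 7 had positive differences with a median of 0.33, against a median of 0.06 over all tested probes. Of 7 relatives of PMP22 and fatty acid binding proteins 0 passed and 0 had an unadjusted p below 0.05 by limma. *Emp2*, of the PMP22 family, was highest in control rat 1 at -0.85.

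Further lists covered glia of the cord itself, nerve sheath and meninges, sensory ganglion neurons and blood. Of 15 central myelin genes 1 passed by its brightest probe, *Mog*, encoding an oligodendrocyte surface protein. It was higher in stressed rats by 0.90 (SE 0.18, adjusted p = 0.0721). In this list 4 had an unadjusted p below 0.05 by limma. Over all tested probes 3.74% passed and 20.3% had an unadjusted p below 0.05. The dimmer probe of *Ermn* also passed, at 0.53 (adjusted p = 0.0683 by limma), whereas its brightest probe differed by -0.20. The mean log2 signal of the list was 2.35 to 2.92 in control rats and 2.70 to 3.11 in stressed rats. Of 14 nerve sheath and meninges genes 0 passed and 0 had an unadjusted p below 0.05 by limma, and their mean was -1.70 to -0.25 in control rats and -1.65 to -0.78 in stressed rats. Control rat 1 had the highest mean of that list and stressed rat 3 the next, as for *Pmp2*. *Col3a1*, a fibroblast collagen, read 0.11 in control rat 1 and -0.94 in stressed rat 3 against -2.91 in stressed rat 1. All 14 sheath genes had a probe detected on at least 7 arrays, so none was at background in either group.

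The mean of 10 sensory ganglion neuron genes, 9 of them tested, was -3.52 to -3.31 in control rats and -3.65 to -3.26 in stressed rats, and 0 passed, with 0 below 0.05 unadjusted by limma. *Mrgprd* was the 1 gene of that list not tested, for being detected on too few arrays. Of 7 oligodendrocyte precursor genes 0 passed and 1 had an unadjusted p below 0.05 by limma. Of 5 tested blood genes and 7 astrocyte genes, 0 passed and 0 had an unadjusted p below 0.05 by limma. Over all tested probes these shares were 3.74% and 20.3%.

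Leaving out control rat 2, whose fit called 42.4% of all tested probes, moved most of these counts. Central myelin then had 7 genes higher and 1 lower of 15, with *Cnp*, an enzyme of oligodendrocyte myelin, at 2.33 and *Olig1*, an oligodendrocyte transcription factor, at 1.22. The lower gene was *Ermn*, at -0.29 by its brightest probe, and its dimmer probe had gone the other way with all 8 rats. The SoxE list had 6 of 7 higher, the node list 4 higher and 2 lower of 11, the cadherin and catenin list 5 higher and 1 lower of 16, and the dystroglycan and basal lamina list 2 higher and 2 lower of 10. Of the precursor genes 2 were higher and 1 lower of 7, of the astrocyte genes 3 were higher of 7, of the PMP22 and fatty acid binding protein relatives 2 were higher of 7, and of the ganglion neuron genes 2 were lower of 9. The sheath and blood lists stayed at 0 by limma, with 0 of their genes at an unadjusted p below 0.05. The part of nerve root, meninges or RNA quality in any of these differences was not tested.

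The genes most like *Cdh19* over the 8 arrays were not Schwann cell genes of these lists. By Pearson r over the 8 arrays, given as a description, they were *Pdgfc* (0.993), *Pdcl* (0.992), *Cpped1* (0.99), *Plec* (0.988) and *Fgfbp3* (0.986). After group centring their r with *Cdh19* ran from 0.928 to 0.952. Such likeness was common for this probe: 5.10% of the other tested probes had an r of at least 0.9 in size with *Cdh19*, against 0.401% for the *Pmp2* 3′ probe. The r over the 8 arrays holds the stressed against control split *Cdh19* was chosen by. The genes named, taken for their high r, differed between the groups by 0.54 to 0.92. Neither a link nor the lack of a link to Schwann cell genes is therefore read from this ranking.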

How the data were processed

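The authors deposited 8 Agilent scanner files holding spot intensity and background flags, written per the file headers by Feature Extraction 10.7.3.1 with rn4 probe positions, and a value table whose columns equal the rounded processed intensity. The flag columns (other values) are the deposited calls of each spot as outlier or well above background. Here log2 of the processed intensity minus the array's 75th percentile was used. Outlier spots were left out, spots of a probe averaged, control spots (4259) left out. Probes detected on at least 4 of 8 arrays were tested with limma 3.58.1 (R 4.3.3), without a block, with Benjamini-Hochberg adjustment; Python 3.11.15, scipy 1.17.1 and exact enumeration (40320 pairings, or 576 within groups) gave the correlations. The study's methods do not state its normalization. The number of arrays limits the precision.

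The members and lists were chosen with earlier results of these data known. Named were all member probes, genes of the peripheral myelin list (some of its values are not reported here), genes of other lists past a false discovery rate of 0.1 or among the 4 brightest, and the 5 gene symbols most like *Cdh19*; *Nrg1*, *Erbb2*, *Adam17*, *Utrn*, *Ank3*, *Cdh1*, *Emp2*, *Col3a1*, *Mrgprd* and genes called without a library were named after their values were seen. On simulated arrays of 23677 probes for this comparison, 46, 146 and 187 of 200 probes shifted by 0.5, 1 and 2 log2 units were recovered. There were 13, 18 and 16 false calls. The simulated noise was normal and independent for each probe. Deviations shared by many probes of an array were not simulated, so recovery in the real arrays may differ. The 5′ against 3′ measure used 1885 transcripts with probes at least 300 bases apart. Rats with the same number did not deviate together in every pair (correlations 0.10, 0.12, -0.09 and 0.31), so numbers were not taken as pairs.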

Additional observations from a re-analysis of the deposited data

Results flagged for a closer look

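Of 46 groups of 4 rats examined (the 9 member probes and 14 peripheral myelin and Schwann lineage genes in each group), 4 held 1 rat whose gap to the nearest other rat took a share of the group's range above Dixon's 95% critical value, and chance gives about 1 in 20, that is 2.3. In stressed rats, *Gldn* in rat 3 read -2.84 with a ratio of 0.84. *Ngfr*, the low-affinity neurotrophin receptor of non-myelinating Schwann cells, read -3.34 in stressed rat 2, the lowest of its group, with a ratio of 0.852. In control rat 2, *Drp2*, which encodes the dystrophin-related partner of periaxin, read -5.73, the highest of its group, with a ratio of 0.897. *Pou3f1*, a transcription factor of promyelinating Schwann cells, read -1.09 in the same rat, again the highest, with a ratio of 0.853.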

How the results depend on the processing

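The 885 probes that passed over the whole array became 231 with the normexp correction, 3010 with no filter on dim probes, 11983 with array weights, 2390 with the 5′ minus 3′ measure as a covariate and 0 with the replicate number as a block. Leaving out 1 rat gave 0 to 10038, the highest without control rat 2 and 0 without stressed rat 1, stressed rat 2 or control rat 3. The count of member probes that passed, 1 by way of *Cdh19*, which was chosen by that contrast, became 0 with normexp, with the filter on all 8 arrays, which removes it, and with the replicate block, where the fit was paired by number, and it was 0 to 1 with 1 rat left out. The 5 correlated pairs became 0 after group centring and 0 to 6 with 1 rat left out. Of 170 refitted member differences 149 kept direction and side of the threshold, 9 of *Cdh19* lost the threshold and 12 changed sign, all of them far from the threshold. *Plp2* became -0.0459 with quantile normalization and -0.157 with the covariate, and ran from -0.0789 to 0.163 with 1 rat left out. *Erbb3* became 0.0219 with normexp and 0.0352 with array weights, and ran from -0.137 to 0.0584. With the covariate *Pmp22* became 0.0607 and the *Pmp2* 5′ probe 0.122, and the latter ran from -1.25 to 0.074. The replicate block changed no other member's call, and the cause of these shifts was not tested. Slide could not be fitted as a block, since all arrays shared 1 slide.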

Other observations

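The genes whose signals were most like those of the *Pmp2* 3′ probe over the 8 arrays, chosen after the values were seen and given as a description, were *Mrap* (Pearson r 0.991), *S100a6* (0.99), *Cldn19* (0.989), *Col15a1* (0.985) and *Copz2* (0.983). *S100a6* encodes a calcium-binding protein and *Col15a1* a basement membrane collagen. After each group was centred on its mean, r ran from 0.98 to 0.989, and their stressed minus control differences ran from -1.21 to -0.27 with adjusted p-values from limma of 0.459 to 0.536. Among the sheath and meninges genes, *Dcn*, which encodes decorin of connective tissue, read 0.53, -0.93, -0.65 and -1.74 in control rats 1 to 4 and -1.60, -0.86, -0.32 and -1.28 in stressed rats 1 to 4. *Thbs4*, a matrix protein gene, read -1.41 in control rat 1, and the other 7 rats lay between -4.52 and -2.95.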
